A study of Mus musculus with 12 samples.

Results

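The 10 genes described here were chosen by name. They are the heat shock proteins and cochaperones *Hspa8*, *Hspa1a*, *Hspa1b*, *Hsph1*, *Dnajb1*, *Bag3*, *Hsp90aa1*, *Hspb1*, *Hspd1* and *Hspe1*, taken as the rows with these symbols among the 54532 genes of the deposited table. Each symbol was found once, and all 10 genes were among the 12740 genes that were tested. Poly-A mRNA was sequenced from colonoids, which are organoids grown from the stem cells of the mouse colonic epithelium. Control colonoids came from C57BL/6 mice with floxed *Hmox1* alleles (*Hmox1* fl/fl), and colonoids labelled KO came from mice that carried the same floxed alleles and *Vil1*-Cre (*Hmox1*ΔIEC). Both were derived from mice 8 to 12 weeks old and were kept in L-WRN conditioned medium. Hemin, which is heme with ferric iron and chloride, was added at 200 μM or replaced by vehicle, and RNA was taken after 24 hours, with 3 libraries in each of the 4 groups. The *Vil1* promoter drives Cre throughout the epithelium of the small and large intestine. The labels do not tie the 3 libraries of a group to separate animals, so p-values measure only the spread between these libraries, which may be technical.

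Heat shock proteins are molecular chaperones that hold, fold or refold other proteins. HSP70 proteins bind unfolded stretches in cycles of ATP hydrolysis, J-domain proteins such as that of *Dnajb1* start the cycle, and nucleotide exchange factors such as those of *Hsph1* and *Bag3* end it. HSP90 acts later on partly folded clients, small heat shock proteins hold unfolded proteins without ATP, and HSP60 with HSP10 forms a folding chamber in mitochondria. Many of these genes are switched on by heat shock factor 1, which binds heat shock elements, inverted repeats of the unit GAA. Heme at high levels is known to damage proteins and lipids, and heme oxygenase 1, the product of *Hmox1*, breaks it down.

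The promoters are shown first because they are the sequences through which heat shock factors reach these genes. RefSeq gives promoter windows on GRCm38.p6 for 8 of the 10 genes, from 250 bases before to 50 bases after a start site, in 11 windows of 300 bases. *Hspa8* and *Hsp90aa1* have none in the table used. Both strands were searched for a heat shock element of 3 units, GAANNTTC followed by NNGAA or the reverse complement, for one of 2 units, GAANNTTC or TTCNNGAA, and for the antioxidant response element core TGACNNNGC. A match to 3 units always holds matches to 2 units. The 3-unit element was found in 4 of the 11 windows, of *Hspd1*, *Hspe1* and *Hsph1*, and in 0.603% of all 32851 promoter windows. The 2 windows of *Hsph1* overlap and hold the same matches. Their 3-unit match lies after the start site, at bases 16 and 37 with the start site as 1, and the only match of *Bag3* begins at base 43. The 2-unit element was found in 8 of the 11 windows, with at least 1 in each gene but *Dnajb1*, and in 15.1% of all windows. Of the *Hspd1* windows, the one at the deposited gene start had no match and the one 311 bases away had them. The antioxidant core was found in 3 windows, of *Dnajb1* and *Hsph1*, and in 12.4% of all windows. In the 150 bases before the start site given below, 5′ to 3′ on the strand of the gene, capitals mark the matches to a heat shock element and, for *Dnajb1*, to the antioxidant core. They are at chr1:55087998-55088147 for *Hspe1* (plus strand), chr17:34972157-34972306 for *Hspa1a* and chr17:34959239-34959388 for *Hspa1b* (both minus strand), chr5:135887769-135887918 for *Hspb1* (plus strand) and chr8:83608025-83608174 for *Dnajb1* (plus strand).
*Hspe1*: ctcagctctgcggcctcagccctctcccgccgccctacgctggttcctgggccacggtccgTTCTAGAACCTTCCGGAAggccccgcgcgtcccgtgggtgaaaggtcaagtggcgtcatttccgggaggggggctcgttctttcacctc
*Hspa1a*: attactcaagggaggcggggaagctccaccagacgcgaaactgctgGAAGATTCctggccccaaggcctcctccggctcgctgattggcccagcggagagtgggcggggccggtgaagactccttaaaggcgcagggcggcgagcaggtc
*Hspa1b*: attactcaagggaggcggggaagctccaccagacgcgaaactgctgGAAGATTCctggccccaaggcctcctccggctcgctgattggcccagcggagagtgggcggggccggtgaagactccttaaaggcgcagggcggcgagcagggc
*Hspb1*: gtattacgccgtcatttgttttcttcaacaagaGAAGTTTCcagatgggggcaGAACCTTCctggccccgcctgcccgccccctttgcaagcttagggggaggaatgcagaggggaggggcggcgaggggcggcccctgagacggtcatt
*Dnajb1*: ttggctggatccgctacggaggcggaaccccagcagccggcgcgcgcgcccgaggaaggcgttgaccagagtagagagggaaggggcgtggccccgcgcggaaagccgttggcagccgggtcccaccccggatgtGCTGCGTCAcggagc
The runs of *Hspa1a* and *Hspa1b* differ at 1 of 150 bases, and their whole windows at 4 of 300. The overlapping 3-unit matches before *Hspe1* are the same bases, read on the other strand, as those before *Hspd1*. These genes lie head to head, and a window of *Hspd1* shares 285 bases with that of *Hspe1*. A match is a run of letters and was not measured as a binding site.

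The targeted gene was looked at first. *Hmox1* FPKM, fragments per kilobase of gene as scaled for depth by the authors, was 7.62, 6.85 and 7.90 in vehicle-treated control libraries and 3.14, 2.11 and 2.31 in vehicle-treated libraries labelled KO. With hemin it was 503, 483 and 382 in control libraries and 1279, 1392 and 1271 in libraries labelled KO, and no library of one genotype overlapped the other. Under vehicle *Hmox1* was lower in the libraries labelled KO (log2 fold change −1.27, adjusted p = 1.2e-05), as the label has it, and with hemin it was higher there (1.53, adjusted p = 3.3e-06), which goes against the label. A value over the whole gene does not separate the floxed part from the rest, so these levels do not test the deletion itself, and the genotypes are named as labelled. The libraries held 11648801 to 25101868 fragments assigned to genes. By chi-square per degree of freedom of the fragments, 3 libraries differed from the others of their group more than those differed from each other. These were replicate 1 of the vehicle-treated controls (17.4 and 18.3 against 2.56), replicate 2 of the hemin-treated libraries labelled KO (28.9 and 30.6 against 3.51) and replicate 3 of the hemin-treated controls (36.1 and 43.1 against 22.8). In the last of these, mitochondrial genes held 4.92% of the fragments against 3.20% and 3.74% in the others of its group, and the pseudogene *Hspd1-ps3* had an FPKM of 22.3 there against at most 8.41 in the other 11 libraries. Where leaving out 1 of these libraries moved the adjusted p-value of a gene among the 10 across the threshold, both values are given with the gene. All 7 markers of colonic epithelium were detected in all 12 libraries. Krt8 and Krt19 made up most of their sum, and the single markers differed in direction. With hemin in controls Epcam went from a mean of 801 to 1380 FPKM and Vil1 from 208 to 371, whereas Krt18 went from 762 to 659, and under vehicle Cdx2 was at 202 in controls and 48.7 in libraries labelled KO. The summed FPKM was 8036 to 8972 with vehicle and 7827 to 9843 with hemin in controls, and 5591 to 5634 and 7261 to 8468 in colonoids labelled KO. Summed over 5 immune, 6 fibroblast and 3 endothelial markers, FPKM reached at most 0.255, 0.885 and 0.192, with the fibroblast genes *Col1a2* and *Dcn* at 0 in every library. The part of these differences in the results below was not tested. In such bulk libraries, fewer cells of a type and less RNA per cell cannot be told apart.

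The 10 genes together held 0.284% to 0.307% of the fragments of vehicle-treated control libraries and 0.312% to 0.325% in those labelled KO. With hemin the shares were 0.195% to 0.239% and 0.211% to 0.227%, below every vehicle-treated library. Most of this sum was *Hspa8* and *Hspd1*, which are expressed without stress. In vehicle-treated controls the mean FPKM (± SD, n = 3) was 389 ± 20.5 for *Hspa8*, 169.7 ± 8.38 for *Hspd1*, 89.8 ± 7.44 for *Hsp90aa1* and 66.9 ± 5.89 for *Hspe1*. It was 24.9 ± 2.69 for *Hspa1b*, 21.7 ± 0.963 for *Bag3*, 16.7 ± 1.09 for *Dnajb1*, 7.77 ± 0.288 for *Hsph1*, 1.87 ± 0.586 for *Hspa1a* and 0.286 ± 0.273 for *Hspb1*. Of neighbours in this order, only *Hspa1b* and *Bag3* had overlapping libraries. In vehicle-treated colonoids labelled KO, *Hspa1b* was at rank 8 rather than 5, next to *Hsph1*, with which it overlapped. In hemin-treated colonoids labelled KO, *Hsp90aa1* stood above *Hspd1* with no overlap, whereas in hemin-treated controls *Hspd1*, *Hsp90aa1* and *Hspe1* overlapped in turn.

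**Figure D1:**
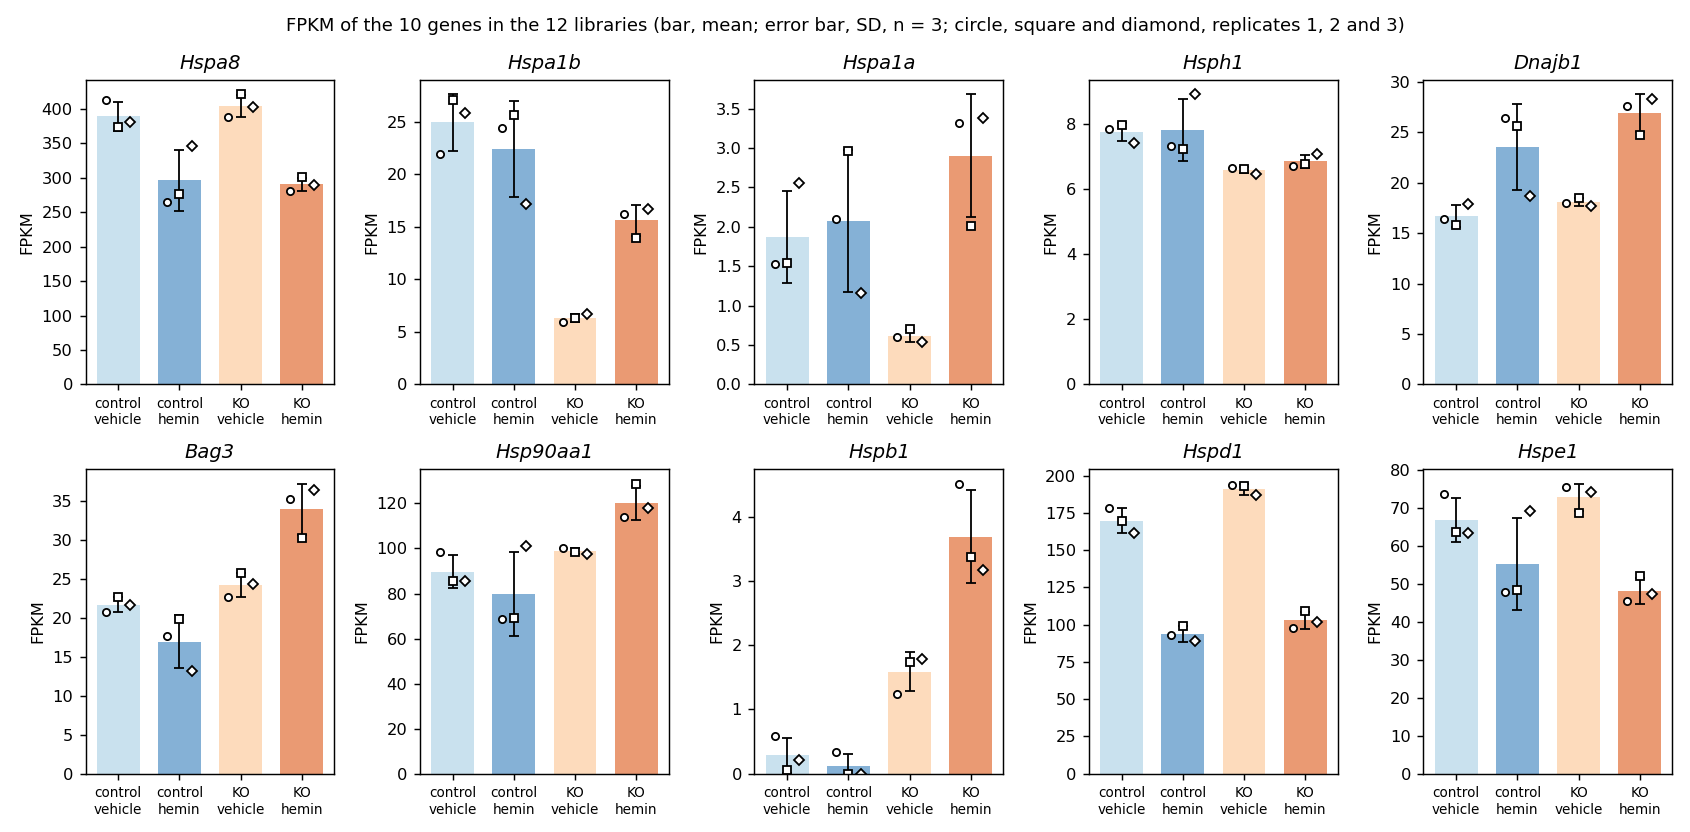
FPKM (vertical axes, linear and starting at 0, 1 scale per gene) of the 10 genes in control colonoids and colonoids labelled KO with vehicle or hemin. Bars are means, error bars are SD (n = 3) and points are libraries. *Hspd1* was lower with hemin in both genotypes, *Hspa1b* was lowest in the vehicle-treated libraries labelled KO, and *Hspb1* was highest in the hemin-treated libraries labelled KO.

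Differences were tested with limma on log2(FPKM + 1), a scale that understates the change of low genes, with Benjamini-Hochberg adjustment over the 12740 genes. A gene that passed had an adjusted p-value under 0.05, and a called gene also had an absolute log2 fold change above 1. With hemin in control colonoids, none of the 10 genes was called by limma or by limma-voom, against backgrounds of 8.11% and 14.4% of all tested genes. In limma 5 had an unadjusted p-value under 0.05. *Dnajb1* passed as higher (background 23.2%) and *Hspd1*, *Hspa8* and *Bag3* as lower (background 26.7%). In colonoids labelled KO, hemin called 2 of the 10, *Hspa1a* and *Hspa1b* (background 12.9%). There, 5 of 10 passed as higher, namely *Hspa1a*, *Hspa1b*, *Hspb1*, *Dnajb1* and *Bag3* (background 29.9%), and *Hspd1*, *Hspe1* and *Hspa8* passed as lower, 3 of 10 (background 30.4%). The share of lower genes was thus near the background in both genotypes. *Hspa1a* and *Hspa1b* have coding sequences that are 99.4% identical, so in the counts here and below they are not independent results. Rescaled to TPM, in which every library has the same sum, the 2 genes called in colonoids labelled KO were *Hspa1a* and *Hspd1*, with *Hspa1b* at 0.93 and *Hspd1* at −1.23, and 20% of all tested genes were called. Of the 5 genes higher there, only *Hspa1a* and *Hspa1b* still passed in TPM (8.09% of all tested genes), and all 3 lower genes did (34%). Over the 10 genes the median log2 fold change with hemin was −0.20 in controls (−0.01 over all tested genes) and 0.37 in colonoids labelled KO (0.00 over all tested genes). Over the 9 genes other than *Hspb1* it was −0.19 and 0.28.

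**Figure D2:**
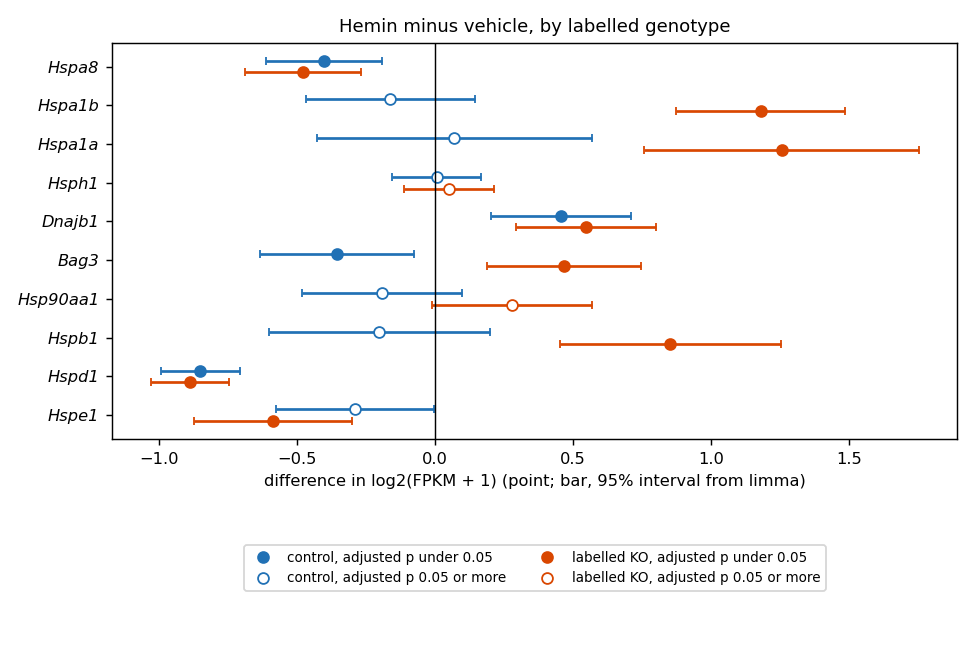
Hemin minus vehicle on the log2(FPKM + 1) scale (horizontal axis) for each of the 10 genes, in control colonoids (blue) and colonoids labelled KO (orange). Points are limma estimates, bars are 95% intervals, and filled points have an adjusted p-value under 0.05. The intervals of the genotypes do not overlap for *Hspa1a*, *Hspa1b*, *Bag3* and *Hspb1*.

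Between genotypes, *Hspb1* is given apart from the other 9 genes. A gene was tested where 3 or more libraries had an FPKM of 1 or higher, a filter that *Hspb1* met only through the libraries labelled KO. It had to differ between genotypes to be tested, so its genotype values are a description and stay out of the counts against the background here and for the interaction. Under vehicle, 1 of the other 9 was called, *Hspa1b* as lower in the libraries labelled KO (background 6.8%). *Hspa1a* was called as lower too in TPM, with or without the RNA *Gm23935* in the sum (backgrounds 9.62% and 9.41%), by limma-voom (10.2%) and with 0.1 added in place of 1 (9.71%). None of the 9 passed as higher by limma, 1 with an unadjusted p-value under 0.05 (background 17.4%), and *Hspa1b*, *Hspa1a* and *Hsph1* passed as lower, 3 of 9 (background 16.8%). Under hemin, none of the 9 was called by limma (background 6.01%), 4 with an unadjusted p-value under 0.05. By limma-voom *Bag3* was called (background 11%). *Bag3* and *Hsp90aa1* passed as higher in the libraries labelled KO, 2 of 9 (background 19.7%), and *Hspa1b* passed as lower (background 14.7%). The interaction, the hemin response in colonoids labelled KO minus that in controls, asks whether the response itself differed. It was called for *Hspa1b* and *Hspa1a*, 2 of the 9 that are near-identical in coding sequence and not independent (background 5.13%). With *Bag3*, 3 of 9 passed with a larger value in colonoids labelled KO (background 13.3%), and none passed the other way (background 10.5%). In TPM *Hspa1b* alone passed, and 2.25% of all tested genes did so with a larger value in colonoids labelled KO. Without replicate 3 of the hemin-treated controls the interaction of *Hspa1a* was 0.95, which passed but fell short of a call. The median interaction was 0.09 over the 9 genes and 0.02 over all tested genes.

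*Hspa1a* and *Hspa1b* encode the stress-inducible cytosolic HSP70 proteins and lie on chromosome 17 of mm10, both on the minus strand, from 34969190 to 34972156 and from 34956436 to 34959238. Each annotated main transcript has 1 exon. *Hspa1b* FPKM was 21.9, 27.1 and 25.8 in vehicle-treated controls and 24.5, 25.7 and 17.2 in hemin-treated controls. In the libraries labelled KO it was 5.98, 6.34 and 6.67 with vehicle and 16.2, 13.9 and 16.7 with hemin. The vehicle-treated libraries labelled KO were thus the lowest of the 12, and hemin brought the gene up without reaching the vehicle-treated controls. The log2 fold change between genotypes under vehicle was −1.82 (95% interval −2.12 to −1.51, adjusted p = 1.7e-06). With hemin *Hspa1b* rose in the colonoids labelled KO (log2 fold change 1.18, interval 0.87 to 1.48, adjusted p = 2.5e-05), a 2.26-fold difference on the FPKM + 1 scale. In controls the response was −0.16 (interval −0.47 to 0.14, adjusted p = 0.36), with overlapping libraries. The interaction was 1.34 (standard error 0.19, adjusted p = 5.9e-04). Between the hemin-treated genotypes the difference was −0.48 (adjusted p = 0.020), and the adjusted p-value was 0.071, 0.064 and 0.075 without replicate 1 or 2 of the hemin-treated controls or replicate 2 of the hemin-treated libraries labelled KO. This difference lost its pass in 6 of 14 alternatives, TPM among them, with an adjusted p-value of at most 0.16.

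*Hspa1a* was far below *Hspa1b* in every library. Its FPKM was 1.53, 1.54 and 2.55 in vehicle-treated controls, 2.10, 2.96 and 1.15 in hemin-treated controls, 0.598, 0.702 and 0.540 in vehicle-treated libraries labelled KO and 3.32, 2.01 and 3.38 in hemin-treated ones. Every vehicle-treated library labelled KO was below every other library. Hemin raised *Hspa1a* in colonoids labelled KO (log2 fold change 1.25, interval 0.76 to 1.75, adjusted p = 6.0e-04). Adjusted for depth, the fragment ratio was 4.47 (interval 3.56 to 5.66, counting error only), above the 2.39-fold of the FPKM + 1 scale. The response was 0.07 in controls (interval −0.43 to 0.57, adjusted p = 0.82), where the hemin-treated libraries lay on both sides of the vehicle-treated ones. The interaction of 1.18 (adjusted p = 0.020) was close to the threshold. Without replicate 3 of either vehicle-treated group, or without replicate 1 or 3 of the hemin-treated libraries labelled KO, its adjusted p-value was 0.0505 to 0.0531 with values of 1.02 to 1.15. Under vehicle the difference between genotypes of −0.82 (adjusted p = 0.016) likewise missed the threshold without replicate 3 of the controls (−0.65, adjusted p = 0.068) or of the libraries labelled KO (−0.78, adjusted p = 0.055). In TPM, by limma-voom and with a pseudocount of 0.1 this difference was called (9.62%, 10.2% and 9.71% of all tested genes).

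Fragments of these genes are hard to separate, since their coding sequences are 99.4% identical, with a run of 638 identical bases. Their regions after the coding sequence share 47.5% of bases and can separate them. Taken as 1 gene, the pair had the same pattern as *Hspa1b*. It rose with hemin in colonoids labelled KO (log2 fold change 1.19, standard error 0.15, adjusted p = 3.5e-05), and the response in controls was −0.14 (adjusted p = 0.47). Under vehicle it was lower in the libraries labelled KO (−1.68, adjusted p = 5.2e-06), and the interaction was 1.33 (adjusted p = 9.0e-04). Between the hemin-treated genotypes the pair differed by −0.35 (adjusted p = 0.091). *Hspa1a* took 13.2% to 17.8% of the fragments of the pair in hemin-treated libraries labelled KO and 5.67% to 10.9% in the other 9 libraries.

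**Figure D3:**
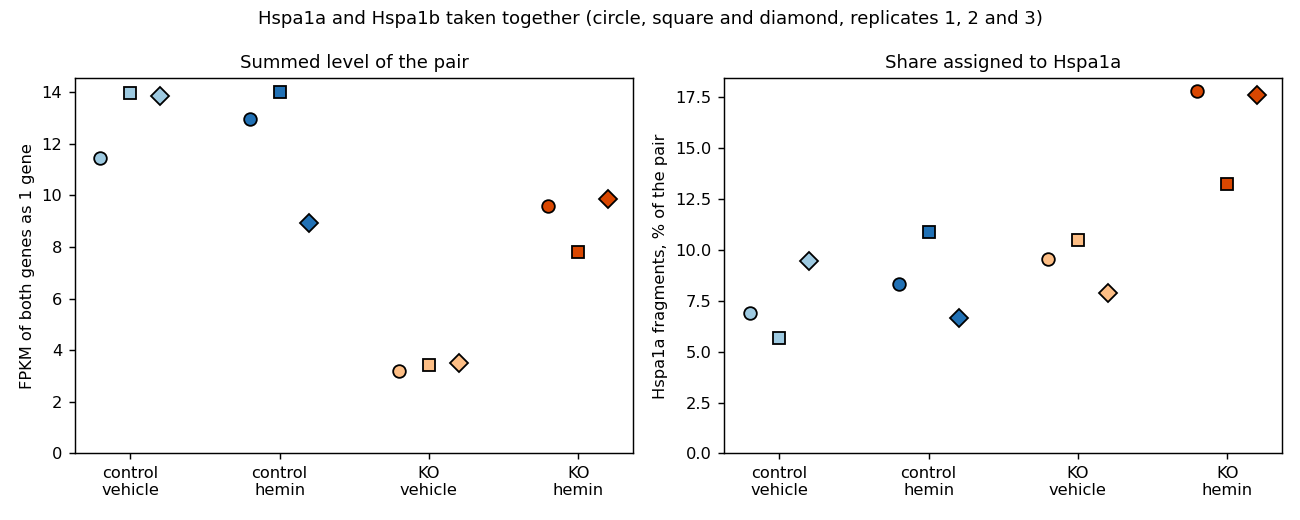
Left, FPKM of *Hspa1a* and *Hspa1b* counted as 1 gene. Right, the percentage of the fragments of the pair that were assigned to *Hspa1a*, in the 12 libraries of the 4 groups (points are libraries, and both vertical axes start at 0). The sum was lowest, 3.21 to 3.52, in the vehicle-treated libraries labelled KO, and the *Hspa1a* share was highest, 13.2% to 17.8%, in the hemin-treated ones.

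*Hspa8* (chromosome 9, 40800984 to 40810087, 9 exons) encodes the constitutive cytosolic HSP70 and passed as lower with hemin in both genotypes. Its FPKM was 413, 374 and 381 with vehicle and 265, 276 and 347 with hemin in controls. In libraries labelled KO it was 389, 421 and 403 with vehicle and 281, 301 and 289 with hemin. Every hemin-treated library was below every vehicle-treated one, with replicate 3 of the hemin-treated controls the nearest. *Hspa8* fell by 0.40 on the log2 scale in controls (adjusted p = 0.0046) and by 0.48 in colonoids labelled KO (adjusted p = 0.0012). The interaction was −0.08 (interval −0.37 to 0.22), and the genotypes differed by 0.06 under vehicle (interval −0.15 to 0.27) and −0.02 under hemin (interval −0.23 to 0.19).

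*Dnajb1* (chromosome 8, 83608193 to 83612653, 3 exons), the J-domain partner that stimulates the ATPase of HSP70, passed as higher with hemin in both genotypes. Its FPKM was 16.4, 15.8 and 17.9 with vehicle and 26.4, 25.7 and 18.6 with hemin in controls. It was 18.0, 18.5 and 17.7 under vehicle and 27.6, 24.8 and 28.3 under hemin in libraries labelled KO. No hemin-treated library overlapped the vehicle-treated ones, although replicate 3 of the hemin-treated controls was close to them. *Dnajb1* rose by 0.46 (interval 0.20 to 0.71, adjusted p = 0.0065) in controls and by 0.55 (interval 0.29 to 0.80, adjusted p = 0.0017) in colonoids labelled KO. The interaction was 0.09 (interval −0.27 to 0.45, adjusted p = 0.75). Rescaled to TPM, in which the median of all genes was −0.18 and −0.31, these increases were 0.28 (adjusted p = 0.27) and 0.23 (adjusted p = 0.34). With the RNA *Gm23935* left out of the sum they were 0.37 (adjusted p = 0.026) and 0.34 (adjusted p = 0.029). *Gm23935* held 29.0%, 21.0% and 16.8% of the FPKM of replicate 1 of the hemin-treated controls, replicate 2 of the hemin-treated libraries labelled KO and replicate 1 of the vehicle-treated controls.

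*Bag3* (chromosome 7, 128523616 to 128546981, 4 exons), a nucleotide exchange factor of HSP70 that takes part in chaperone-assisted autophagy, passed in opposite directions. Its FPKM was 20.7, 22.7 and 21.7 with vehicle and 17.7, 19.9 and 13.2 with hemin in controls. It was 22.7, 25.7 and 24.4 under vehicle and 35.3, 30.2 and 36.4 under hemin in libraries labelled KO. All hemin-treated libraries labelled KO were above every other library, and all hemin-treated control libraries below every other one. In colonoids labelled KO *Bag3* rose by 0.47 (adjusted p = 0.0079), which was 0.14 (adjusted p = 0.62) rescaled to TPM and 0.25 (adjusted p = 0.13) in TPM without *Gm23935*. In controls the log2 fold change was −0.36 (adjusted p = 0.037), and −0.20 (adjusted p = 0.080) without replicate 3 of the hemin-treated controls, its lowest library. Leaving out any 1 of the vehicle-treated controls gave an adjusted p-value of 0.055 to 0.10. The interaction was 0.82 (interval 0.43 to 1.22, adjusted p = 0.0068), and 0.66 (adjusted p = 0.0017) without that replicate 3. In TPM it was 0.70 (adjusted p = 0.20), and 0.73 (adjusted p = 0.019) in TPM without *Gm23935*. Between the hemin-treated genotypes *Bag3* was higher in the libraries labelled KO by 0.98 (interval 0.70 to 1.26, adjusted p = 1.3e-04), just short of the fold threshold of a call.

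*Hsph1* (chromosome 5, 149614287 to 149636376, 17 exons) encodes an HSP110 that acts as an exchange factor for HSP70. On log2(FPKM + 1), though not in TPM, it had the hemin responses nearest 0 of the 10 genes in both genotypes. Its FPKM in controls was 7.87, 7.99 and 7.44 under vehicle and 7.34, 7.24 and 8.93 under hemin. It was 6.65, 6.64 and 6.48 under vehicle and 6.72, 6.77 and 7.10 under hemin in libraries labelled KO. The hemin response was 0.01 in controls (interval −0.16 to 0.17) and 0.05 in colonoids labelled KO (interval −0.11 to 0.21). Under TPM scaling both signs turned, to −0.18 and −0.27, with all genes at −0.18 and −0.31. Under vehicle *Hsph1* was lower in the libraries labelled KO by a log2 fold change of −0.21 (adjusted p = 0.049), and without any 1 of these 6 libraries the adjusted p-value was 0.067 to 0.14.

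*Hsp90aa1* (chromosome 12, 110690605 to 110702728, 11 exons) encodes the inducible cytosolic HSP90. Its FPKM was 98.3, 85.5 and 85.4 with vehicle and 68.8, 68.9 and 101 with hemin in controls. In libraries labelled KO it was 100.2, 98.6 and 97.8 under vehicle and 114, 129 and 118 under hemin. Replicate 3 of the hemin-treated controls lay above the vehicle-treated controls, and the other replicates of its group below them. The response was −0.19 in controls (interval −0.48 to 0.10, adjusted p = 0.25) and −0.37 (adjusted p = 0.0012) without that library. In colonoids labelled KO it was 0.28 (interval −0.01 to 0.57, adjusted p = 0.089), and −0.06 in TPM. The interaction was likewise 0.47 (adjusted p = 0.094) with that library and 0.65 (adjusted p = 5.1e-04) without it. Under hemin *Hsp90aa1* was higher in the libraries labelled KO by 0.61 (interval 0.32 to 0.90, adjusted p = 0.0040), with every library above every control. In TPM the same difference was 0.62 (adjusted p = 0.064).

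*Hspb1* (chromosome 5, 135887919 to 135889563, 3 exons) encodes the small heat shock protein HSP25, an ATP-independent holdase. It was close to undetected in controls, with 10, 1 and 3 fragments under vehicle and 4, 0 and 0 under hemin, where 0 allows up to 3 fragments in a library. In libraries labelled KO the numbers were 21, 31 and 31 under vehicle and 67, 82 and 47 under hemin. In FPKM the control libraries were at 0.588, 0.0568 and 0.212 under vehicle and at 0.340, 0 and 0 under hemin. Those labelled KO were at 1.25, 1.74 and 1.79 under vehicle and at 4.51, 3.38 and 3.18 under hemin. All 6 libraries labelled KO were above all 6 control libraries, and the hemin-treated ones above the vehicle-treated ones. Adjusted for depth, the fragment ratio of libraries labelled KO to controls was 5.56 (95% interval 3.13 to 10.6) under vehicle and 32.7 (interval 12.6 to 121) under hemin, intervals that cover counting error only. The log2 fold changes were 1.03 and 2.08, and at these low levels their size depends on the pseudocount. With a pseudocount of 0.1 they were 2.37 and 4.52. No p-value is given for these genotype differences, since the libraries labelled KO alone brought *Hspb1* past the filter. Hemin raised *Hspb1* by 0.85 (adjusted p = 0.0018) in colonoids labelled KO, with a fragment ratio of 2.28 (interval 1.76 to 2.98). The response in controls was −0.20 (interval −0.60 to 0.20), from 14 and 4 fragments over 3 libraries each. With a pseudocount of 0.1 the hemin response in colonoids labelled KO was 1.16 (adjusted p = 0.13). The interaction was 1.05, and 2.14 with a pseudocount of 0.1 and 2.62 by limma-voom. It is a description too, given without a p-value.

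**Figure D4:**
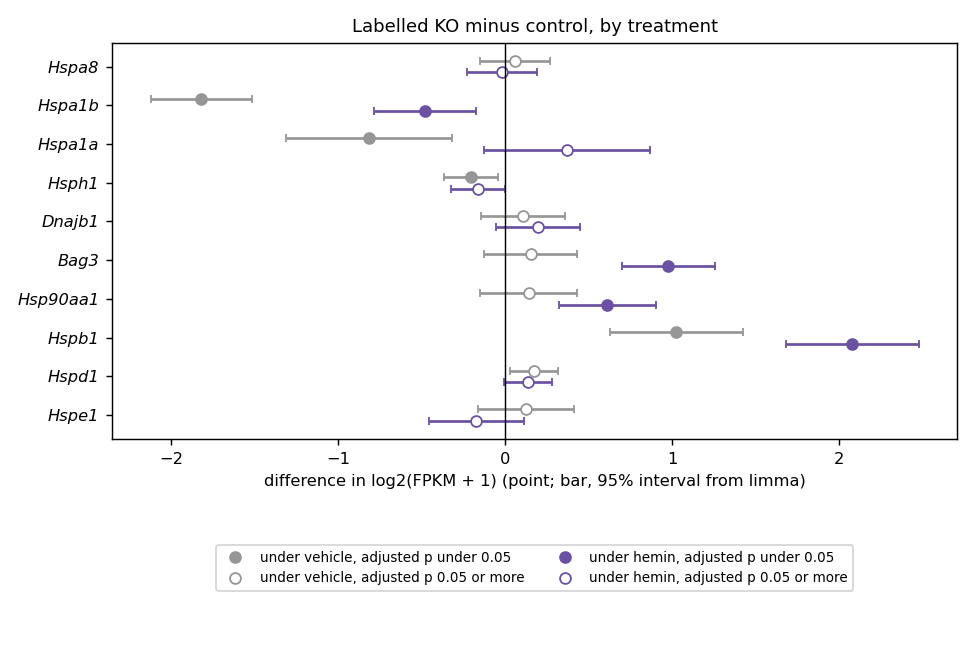
Libraries labelled KO minus control libraries on the log2(FPKM + 1) scale (horizontal axis) for each of the 10 genes, under vehicle (grey) and under hemin (purple). Points are limma estimates, bars are 95% intervals, and filled points have an adjusted p-value under 0.05. *Hspa1b* lies at −1.82 under vehicle and −0.48 under hemin, and *Hspb1*, which met the filter only through the libraries labelled KO, at 1.03 and 2.08.

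*Hspd1* and *Hspe1* encode the mitochondrial chaperonin HSP60 and its lid HSP10, and they lie head to head on chromosome 1. *Hspd1* runs from 55077835 to 55088243 on the minus strand with 12 exons, and *Hspe1* from 55088132 to 55091307 on the plus strand with 4 exons. *Hspd1* FPKM was 178, 169 and 161 with vehicle and 92.9, 99.3 and 89.0 with hemin in controls. In libraries labelled KO it was 193, 193 and 187 with vehicle and 98.0, 109 and 101 with hemin. All 6 libraries given hemin were far below the 6 given vehicle. *Hspd1* fell by 0.85 on the log2 scale in controls (interval −0.99 to −0.71, adjusted p = 1.7e-06) and by 0.89 in colonoids labelled KO (interval −1.03 to −0.74, adjusted p = 6.8e-07). The interaction was −0.04 (interval −0.24 to 0.17).

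*Hspe1* FPKM in controls was 73.7, 63.7 and 63.3 under vehicle and 47.9, 48.5 and 69.3 under hemin. In libraries labelled KO it was 75.5, 68.8 and 74.3 under vehicle and 45.4, 52.0 and 47.3 under hemin. In hemin-treated controls replicate 3 overlapped the vehicle-treated libraries, and the other replicates were below them. *Hspe1* fell by 0.59 in colonoids labelled KO (interval −0.87 to −0.30, adjusted p = 0.0023). In controls the log2 fold change was −0.29 (interval −0.57 to −0.0043, adjusted p = 0.085), and −0.46 (adjusted p = 6.6e-04) without replicate 3. The interaction was −0.30 (interval −0.70 to 0.11). The annotated genes overlap by 112 bases on opposite strands, and the strand setting of the counting is not given in the sources used here, so reads from the overlap cannot be told apart. Of the processed pseudogenes named for *Hspd1*, *Hspd1-ps3* held 16.3% as many fragments as *Hspd1* in replicate 3 of the hemin-treated controls and at most 3.47% in the other libraries. The pseudogenes named for *Hspe1* stayed at or below 0.335% of *Hspe1*.

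Other chaperone genes were taken from 10 family lists with 76 genes, of which 63 were tested. With hemin, 16 of the 63 passed as higher (25.4%, against 23.2% of all tested genes) and 28 as lower (44.4% against 26.7%) in controls. In colonoids labelled KO 22 passed as higher (34.9% against 29.9%) and 24 as lower (38.1% against 30.4%). None was called in controls, against 8.11% of all tested genes (48 with an unadjusted p-value under 0.05 in limma). By limma-voom 2 were called there, against 14.4%. In colonoids labelled KO limma called 3, against 12.9%. These were *Fkbp5*, *Dnajb2* and *Dnajb9*. In TPM 4 and 10 were called, against 12% and 20% of all tested genes. The split moved with the scaling, as did that of all tested genes. In TPM, where 66 of these genes were tested, 5 passed as higher and 22 as lower in controls, and 8 as higher and 31 as lower in colonoids labelled KO, where all tested genes were at 5.9% and 21.9%, and at 8.09% and 34%. In TPM without *Gm23935* the split was 12 and 34 in controls (15.2% and 28.5% of all tested genes) and 14 and 35 in colonoids labelled KO (16.3% and 36.8%). Of the increases named below, those of *Dnajb2*, *Dnaja1* and *Hsf2* in controls and of *Stub1* and *Hsf2* in colonoids labelled KO no longer passed in TPM, with adjusted p-values of 0.19 to 0.32, and all passed in TPM without *Gm23935*. The interactions of *Dnajb2* and *Dnajb9* likewise had adjusted p-values of 0.20 and 0.10 in TPM. Between genotypes under vehicle, 3 passed as higher (4.76% against 17.4% of all tested genes) and 6 as lower (9.52% against 16.8%) in the libraries labelled KO, and under hemin 16 (25.4% against 19.7%) and 3 (4.76% against 14.7%). The interaction passed for 9 with a larger (14.3% against 13.3%) and 3 with a smaller value (4.76% against 10.5%) in colonoids labelled KO. Without replicate 3 of the hemin-treated controls, 17 and 31 of the 63 passed as higher and lower with hemin in controls (27.1% and 29.7% of all tested genes). In colonoids labelled KO 25 and 30 did (34.7% and 34.5%).

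In the list of other mitochondrial chaperones and proteases, 8 of 10 genes passed as lower and none as higher with hemin in controls (26.7% and 23.2% of all tested genes), and 7 passed as lower and 3 as higher in colonoids labelled KO (30.4% and 29.9%). The 3 higher are thus at the background. None passed as higher in TPM (5.9% and 8.09% of all tested genes), and without replicate 3 of the hemin-treated controls 6 passed as lower in controls (29.7%). *Hspa9*, the mitochondrial HSP70, fell from 137 ± 2.16 (SD, n = 3) to 70.3 ± 1.43 FPKM in controls and from 139 ± 0.614 to 80.9 ± 1.77 in colonoids labelled KO (log2 fold changes −0.95, adjusted p = 7.2e-08, and −0.78, adjusted p = 1.5e-07). *Lonp1*, the matrix protease, fell from 37.0 ± 2.62 to 19.0 ± 3.47 and from 36.0 ± 1.97 to 18.8 ± 0.686 (log2 fold changes −0.94, adjusted p = 3.5e-05, and −0.90, adjusted p = 3.0e-05). Subunits of TRiC, the cytosolic chaperonin that folds actin and tubulin, passed as lower in 7 of 8 cases in both genotypes (26.7% and 30.4% of all tested genes). Without replicate 3 of the hemin-treated controls all 8 did (29.7% and 34.5%). TRiC had a median log2 fold change of −0.41 in controls and −0.54 in colonoids labelled KO, against −0.01 and 0.00 over all tested genes. Its largest change was in *Cct5*, which fell by 0.47 in controls (adjusted p = 8.8e-05) and by 0.74 in colonoids labelled KO (adjusted p = 1.8e-06).

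Of 7 other J-domain genes tested, 4 passed as higher and none as lower with hemin in controls (23.2% and 26.7% of all tested genes), and 5 as higher and 1 as lower in colonoids labelled KO (29.9% and 30.4%). Those that passed as higher were 1 and 2 in TPM (5.9% and 8.09% of all tested genes), and 4 in both genotypes in TPM without *Gm23935* (15.2% and 16.3%). *Dnajb2*, a J-domain protein that binds ubiquitin, was at 8.21 ± 0.988 and 11.8 ± 2.19 FPKM in controls with vehicle and hemin, and at 6.08 ± 0.194 and 16.5 ± 1.95 in libraries labelled KO. It rose by 1.30, adjusted p = 8.0e-06, in colonoids labelled KO, and by 0.47, adjusted p = 0.011, in controls, with an interaction of 0.83, adjusted p = 0.0078. *Dnaja1*, which also drives HSP70, rose by 0.45, adjusted p = 2.1e-04, in controls and by 0.81, adjusted p = 1.6e-06, in colonoids labelled KO.

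Among HSP90 and its cochaperones, 3 of 12 passed as higher and 6 as lower with hemin in controls, and 3 as higher and 4 as lower in colonoids labelled KO. Beside 23.2%, 26.7%, 29.9% and 30.4% of all tested genes, these shares are near the background but for the 6 lower in controls. In TPM 1 passed as higher and 3 as lower in controls (5.9% and 21.9% of all tested genes), and 1 and 7 in colonoids labelled KO (8.09% and 34%). There, 7 also passed as lower without replicate 3 of the hemin-treated controls (34.5%). The constitutive *Hsp90ab1*, the most abundant HSP90 gene here by FPKM, fell from 834 ± 12.1 to 569 ± 7.86 FPKM in colonoids labelled KO (log2 fold change −0.55, adjusted p = 1.2e-05), where *Hsp90aa1* had a positive value that did not pass. *Fkbp5*, an HSP90-bound immunophilin and a known glucocorticoid target, had the highest log2 fold change with hemin of its list in both genotypes. Its FPKM was 11.9 ± 0.287 and 23.7 ± 3.04 in controls, and 2.53 ± 0.186 and 28.6 ± 1.73 in libraries labelled KO. It was lower in the libraries labelled KO under vehicle (−1.87, adjusted p = 3.3e-08) and rose with hemin by 3.07, adjusted p = 5.8e-10, there and by 0.93, adjusted p = 7.4e-06, in controls. Its interaction of 2.14 (adjusted p = 1.1e-06) was the only one called among the 63 genes. Like *Hspa1b*, it had its lowest values in the vehicle-treated libraries labelled KO.

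Of the HSP70 cochaperones other than *Bag3*, 2 of 8 passed as higher and 2 as lower with hemin in each genotype, against 23.2% to 30.4% of all tested genes. In TPM 1 passed as higher and 2 as lower in controls (5.9% and 21.9% of all tested genes), and none and 2 in colonoids labelled KO (8.09% and 34%). Without replicate 3 of the hemin-treated controls 3 passed each way in both (27.1% and 29.7% in controls, 34.7% and 34.5% in colonoids labelled KO). *Stub1*, the ubiquitin ligase CHIP that binds HSP70 and HSP90, rose by 0.92, adjusted p = 3.6e-05, in controls and by 0.65, adjusted p = 3.2e-04, in colonoids labelled KO. Chaperones of the endoplasmic reticulum passed as higher in 1 of 7 and lower in 3 of 7 cases in controls, and in 3 and 2 in colonoids labelled KO, small counts beside the same shares of all tested genes. In TPM none passed as higher and 3 as lower in controls, and 1 and 2 in colonoids labelled KO, beside the shares in TPM given for the HSP70 cochaperones. *Dnajb9*, a target of the unfolded protein response, rose by 1.09, adjusted p = 6.8e-05, in colonoids labelled KO. It was lower there under vehicle (−0.88, adjusted p = 6.6e-04), the difference between the hemin-treated genotypes was 0.07, adjusted p = 0.74, and the response in controls was 0.13, adjusted p = 0.47, with an interaction of 0.95, adjusted p = 0.0063. Without replicate 3 of the hemin-treated controls the last 3 were 0.28 (adjusted p = 0.014), −0.07 (adjusted p = 0.46) and 1.16 (adjusted p = 2.4e-05). *Hsp90b1*, the HSP90 of this compartment, fell by 0.72 in controls (adjusted p = 8.5e-05) and by 0.64 in colonoids labelled KO (adjusted p = 1.4e-04).

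Among the heat shock factors, *Hsf1* did not pass in any comparison on log2(FPKM + 1) with all 12 libraries. Its FPKM was 5.17 ± 0.312 and 4.32 ± 0.643 in controls and 5.45 ± 0.220 and 4.76 ± 0.320 in libraries labelled KO, with hemin responses of −0.22 (interval −0.41 to −0.02) and −0.17 (interval −0.36 to 0.03). In TPM *Hsf1* passed as lower with hemin in colonoids labelled KO (−0.51, adjusted p = 0.044), and in TPM without *Gm23935* in controls (−0.35, adjusted p = 0.020) and in colonoids labelled KO (−0.40, adjusted p = 0.0080). Without replicate 3 of the hemin-treated controls its response in colonoids labelled KO also passed (−0.17, adjusted p = 0.039). *Hsf2* rose from 1.16 ± 0.0737 to 1.98 ± 0.707 FPKM in controls (0.44, adjusted p = 0.021) and from 1.16 ± 0.0955 to 2.04 ± 0.201 in colonoids labelled KO (0.49, adjusted p = 0.0096). Without that library the rise in controls was 0.25 (adjusted p = 0.027). *Hsbp1*, which encodes a protein that binds HSF1, rose by 0.83, adjusted p = 1.7e-05, and by 0.88, adjusted p = 5.9e-06.

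**Figure D5:**
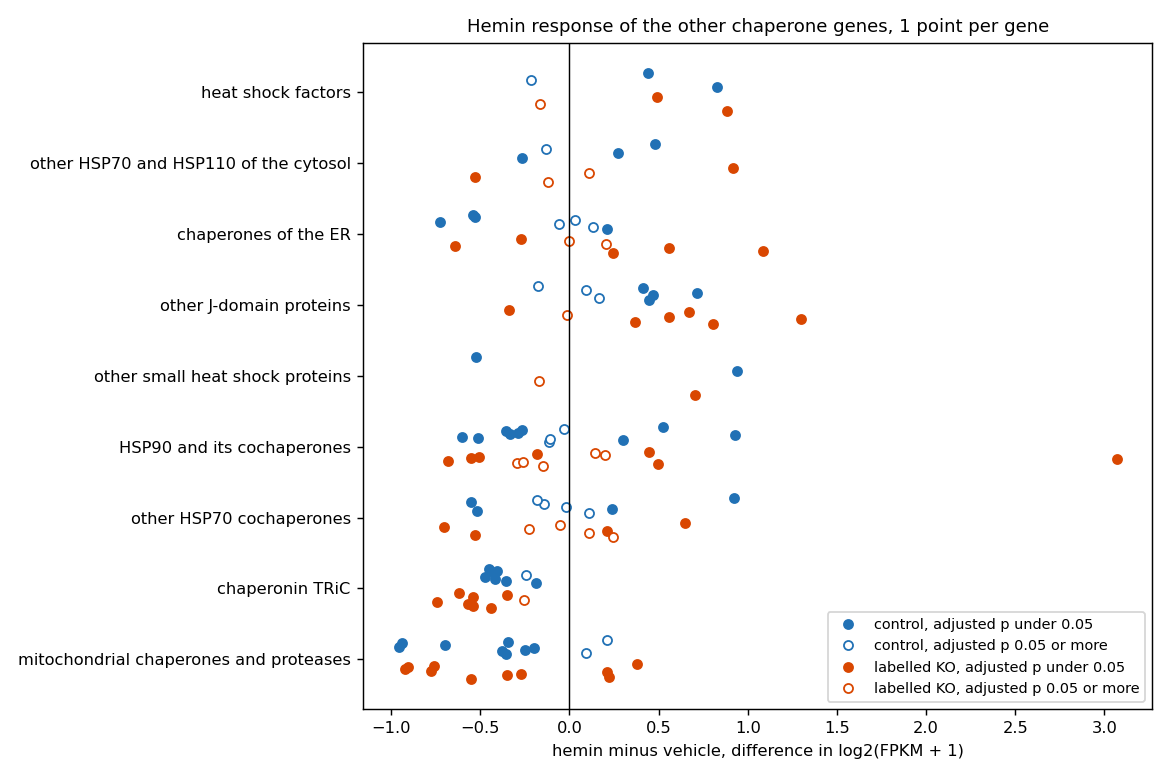
Hemin minus vehicle on the log2(FPKM + 1) scale (horizontal axis) for 61 tested genes of 9 chaperone lists, 1 point per gene, in control colonoids (blue) and colonoids labelled KO (orange). Filled points have an adjusted p-value under 0.05. TRiC lies below 0 in both genotypes, and the point at 3.07 is *Fkbp5* in colonoids labelled KO.

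The levels of the 10 genes over the 12 libraries fell into more than 1 pattern. On log2(FPKM + 1), Pearson's r was 0.94 between *Hspa8* and *Hspe1*, 0.90 between *Hspa8* and *Hspd1*, and −0.93 between *Hspa8* and *Dnajb1*. *Hspb1* and *Bag3* had an r of 0.87, and *Hspb1* and *Hspa1b* of −0.51. These values describe 12 libraries in 4 groups and carry no test. The genes most like *Hspd1* among the 12740 were *Iqgap3*, *Shmt1*, *Bub1b*, *Fads2* and *Noc2l*, with r from 0.995 to 0.994. Those most like *Hsph1* were *Fnip1*, *Zfp809*, *Efr3a*, *Fam241a* and *Tbc1d15*, with r from 0.954 to 0.935.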

How the data were processed

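The authors deposited FPKM, fragments per kilobase of gene scaled for depth, for 54532 genes and 12 libraries, and per the labels fastp, HISAT2 2.0.5, featureCounts 1.5.0-p3 and mm10 are named in the submitters' processing notes. Libraries were prepared, sequenced and analysed by Novogene, and the strand setting is not given in the sources used here. Groups and replicate numbers were taken from the sample titles. The label of replicate 3 of the hemin-treated libraries labelled KO writes the genotype with floxed alleles and *Vil1*-Cre. FPKM times gene length gave whole multiples of 1 fragment within 0.01 fragments for 100% of the values in each library, so fragments were recovered (11648801 to 25101868 per library).

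Genes with FPKM of at least 1 in at least 3 libraries were kept. R 4.3.3 with limma 3.58.1 was fitted to log2(FPKM + 1), a pseudocount of 1, with 1 mean per group over the 12 libraries, an intensity trend, no block and 8 residual degrees of freedom. p-values were adjusted by the Benjamini-Hochberg method. The functions were tested on simulated data. Fragment ratios have exact binomial 95% intervals. Promoter windows are from RefSeq (GRCm38.p6), exons from GENCODE M21, in which 98.33% of 54409 shared genes have the deposited start and end. Figures were drawn with Python 3.11.15 and matplotlib 3.10.9.

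The members and lists were chosen with earlier results of these data known. Genes named were the 10 members, *Hmox1*, *Hsf1*, *Hsf2*, genes of the other lists called between hemin-treated groups or in the interaction, at most the 3 largest absolute changes per list and comparison, and the 5 genes most correlated with *Hsph1* and with *Hspd1*. *Gm23935*, *Hspd1-ps3* and the cell type markers given fall outside it, since they were picked once their values had been seen. A single gene that this rule names is not reported here. Alternatives to these choices were limma-voom on recovered fragments, calls by the adjusted p-value alone, TPM, a pseudocount of 0.1, keeping all genes with a value above 0, the replicate number as a block, a fit of the groups compared alone, *Hspa1a* and *Hspa1b* as 1 gene, and each library left out. TPM without *Gm23935* was added after seeing the data.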

Additional observations from a re-analysis of the deposited data

Results flagged for a closer look

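For 3 of the 9 genes other than *Hspb1* the hemin response differed between colonoids labelled KO and controls by a test of the difference itself, the interaction term in limma (13.3% of all tested genes passed with a larger value in colonoids labelled KO). Of these, *Hspa1a* and *Hspa1b* are not independent, and taken as 1 gene they had an interaction of 1.33 (adjusted p = 9.0e-04). The interaction was 1.34 for *Hspa1b* (adjusted p = 5.9e-04), with responses of 1.18 and −0.16. For *Hspa1a* it was 1.18 (adjusted p = 0.020), with responses of 1.25 and 0.07. For *Hspb1*, which was tested only because the libraries labelled KO met the filter, it was 1.05, a description given without a p-value. Its responses were 0.85 and −0.20, the latter from 4 fragments with hemin and 14 with vehicle. For *Bag3* the interaction was 0.82 (adjusted p = 0.0068), with responses of 0.47 and −0.36. Rescaled to TPM, *Hspa1b* alone passed (adjusted p = 0.021), and the adjusted p-value was 0.062 for *Hspa1a* and 0.20 for *Bag3*. Over the alternatives the interaction lost its pass in 6 of 19 for *Hspa1a* and 1 of 18 for *Bag3*. Genotypes are as labelled, and *Hmox1* ran with the label under vehicle and against it under hemin. With 3 libraries in each group, single libraries were not tested as outliers.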

How the results depend on the processing

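Counts of members here include *Hspb1*, which only the libraries labelled KO brought past the filter. Of 709 values of single members under an alternative, 631 kept their direction and side of the threshold, 46 no longer passed, 7 newly passed and 25 changed sign. Rescaling to TPM moved the median of all tested genes by hemin to −0.18 in controls and −0.31 in colonoids labelled KO, and to 0.15 between genotypes under vehicle, 0.03 under hemin and −0.12 for the interaction. In TPM, 1 member was called with hemin in controls, 2 between genotypes under hemin and 1 for the interaction (12%, 7.64% and 6.35% of all tested genes), and 2, 5, 2 and 1 members passed in the hemin responses of controls and of colonoids labelled KO, between genotypes under hemin, and in the interaction (27.8%, 42.1%, 14.9% and 7.11%). Other chaperone genes called in TPM were 4 and 10 with hemin in controls and in colonoids labelled KO, 3 between genotypes under vehicle and 2 for the interaction (12%, 20%, 9.62% and 6.35% of all tested genes). With a pseudocount of 0.1, 2 members were called between the hemin-treated genotypes (10.5% of all tested genes), and 2, 5, 1 and 3 other chaperone genes with hemin in controls and in colonoids labelled KO, between these genotypes and for the interaction (13.8%, 19.3%, 10.5% and 7.62%). By limma-voom these were 2 members (11%), and 2, 6, 1 and 3 other genes (14.4%, 20.4%, 11% and 7.55%), and 3 members were called with hemin in colonoids labelled KO and 3 between genotypes under vehicle (20.4% and 10.2%). By the adjusted p-value alone, 4, 8, 4 and 4 members and 44, 46, 9 and 19 other genes passed in the comparisons with 2 groups (49.9%, 60.4%, 34.2% and 34.4% of all tested genes), and 12 other genes for the interaction (23.8%). Leaving out each library in turn, the members called were 0 to 0, 2 to 2, 1 to 2, 1 to 2 and 1 to 3 (hemin in controls, hemin in colonoids labelled KO, genotypes under vehicle, genotypes under hemin, interaction), where 7.76% to 9.03%, 12.2% to 13.1%, 6% to 6.63%, 5.91% to 6.55% and 4.44% to 5.44% of all tested genes were called. Other genes called were 0 to 2, 3 to 3, 1 to 1, 0 to 0 and 1 to 2. Members that passed were 3 to 5, 8 to 8, 2 to 3, 3 to 4 and 3 to 5. Without replicate 3 of the hemin-treated controls, 56.8%, 69.3%, 45.9%, 43.1% and 37.2% of all tested genes passed.

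Some signs changed. The hemin response of *Hspa1a* in controls was −0.083 in TPM, −0.011 in TPM without *Gm23935*, −0.14 as 1 gene with *Hspa1b* and −0.14 to 0.30 without single libraries, and that of *Hsph1* was −0.18, −0.097 and −0.081 to 0.054. For *Hspa1b* it was −0.26 to 0.012 without single libraries. In colonoids labelled KO, *Hsph1* was −0.27 in TPM and −0.16 in TPM without *Gm23935*, and *Hsp90aa1* −0.059 in TPM. Between the hemin-treated genotypes *Hspa1a* was −0.35 as 1 gene with *Hspa1b*, and *Hspa8* −0.093 to 0.099 without single libraries. The interaction was −0.054 in TPM, −0.025 in TPM without *Gm23935* and −0.064 to 0.18 without single libraries for *Dnajb1*, and −0.092, −0.064 and −0.0035 to 0.13 for *Hsph1*. Without single libraries it was −0.15 to 0.043 for *Hspa8* and −0.081 to 0.0053 for *Hspd1*. The cause was not tested.

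The values gave no sign that replicate numbers pair the libraries, although with 3 libraries in each group this check cannot settle it. Deviations from the group mean correlated by −0.04 on average (range −0.33 to 0.18) over 18 pairs with the same number, 2 of them over 0.1, and by 0.02 for other pairs. With the number as a block, 761 genes in place of 766 were called between the hemin-treated genotypes, and the log2 fold changes of *Bag3* with hemin in controls (−0.36, adjusted p = 0.058) and *Hsph1* between genotypes under vehicle (−0.21, adjusted p = 0.081) no longer passed. *Hspb1* with hemin in controls could not be fitted with the groups compared alone. Low fragment numbers limit *Hspb1* and *Hspa1a* most.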
